A study of Mus musculus with 28 samples.

Results

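Slc17a7, Neurod6, Neurod2, Tbr1, Slc30a3, Cux2, Rorb, Fezf2 and Nrn1, 9 genes used as markers of excitatory neurons of the cerebral cortex, were followed across RNA libraries of the mouse nucleus accumbens. They were picked by symbol and are 9 of the 53599 genes in the deposited count table; all 9 were among the 21164 genes with enough reads to be tested. The 28 libraries came from outbred CFW mice at 15 days of age, sampled in spontaneous withdrawal after morphine once a day, or after saline, and no genotype or transgene is given in the labels. The groups were 8 males given saline, 8 males given morphine, 6 females given saline and 6 females given morphine. The morphine dose, the litters and the borders of the dissection are not given in the sources used here, and p-values measure the spread between these libraries.

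Excitatory neurons of the cortex release glutamate, which the vesicular transporter Slc17a7 (VGLUT1) loads into synaptic vesicles. The projection neurons of the accumbens are inhibitory and receive glutamate from cortical axons, whose cell bodies lie in the cortex around the striatum. The layers of the cortex are told apart by transcription factors such as Cux2 and Rorb in upper layers and Fezf2 and Tbr1 in deep layers. None of the 9 genes is restricted to the cortex: Slc17a7, Neurod2, Neurod6 and Nrn1 also mark hippocampal neurons, Slc17a7 and Neurod2 cerebellar granule cells, and Cux2 and Rorb some inhibitory neurons.

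On the mm10 build, with GENCODE M21 gene bounds and strand, the markers lie apart from each other in the genome. The transporters and Neurod factors are Slc17a7 at chr7:45163949-45176142 (plus), Slc30a3 at chr5:31086106-31108237 (minus), Neurod6 at chr6:55677822-55681263 (minus) and Neurod2 at chr11:98325415-98329648 (minus). The layer markers are Tbr1 at chr2:61802930-61814114 (plus), Cux2 at chr5:121856366-122050102 (minus), Rorb at chr19:18930605-19111196 (minus) and Fezf2 at chr14:12342094-12348189 (minus). Nrn1 lies at chr13:36725361-36735131 (minus). All are protein-coding, and the table gives 1 count per gene and library.

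The promoters of 3 of the genes are shown for the place of these genes in the text below. Slc17a7 was the most abundant, and Neurod6 and Neurod2 are relatives within 1 family of transcription factors. Whether any level depends on a promoter sequence was not tested. RefSeq (GRCm38.p6) gave a start site for 8 of the 9 genes. Each run covers the 250 bases before the start, written 5′ to 3′, at chr7:45163671-45163920 (plus strand), chr6:55681264-55681513 (minus strand) and chr11:98329646-98329895 (minus strand). Capitals mark CAGATG, a motif that neurogenic factors of the Neurod family bind, searched on both strands.
Slc17a7: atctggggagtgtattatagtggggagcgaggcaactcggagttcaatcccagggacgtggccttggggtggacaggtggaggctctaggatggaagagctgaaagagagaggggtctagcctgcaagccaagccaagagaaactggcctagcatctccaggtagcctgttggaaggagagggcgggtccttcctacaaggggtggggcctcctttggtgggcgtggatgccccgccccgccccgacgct
Neurod6: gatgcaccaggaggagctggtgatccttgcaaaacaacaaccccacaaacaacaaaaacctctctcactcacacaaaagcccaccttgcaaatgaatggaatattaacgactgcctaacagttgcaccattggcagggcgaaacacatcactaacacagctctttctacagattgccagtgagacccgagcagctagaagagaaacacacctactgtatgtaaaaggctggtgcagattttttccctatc
Neurod2: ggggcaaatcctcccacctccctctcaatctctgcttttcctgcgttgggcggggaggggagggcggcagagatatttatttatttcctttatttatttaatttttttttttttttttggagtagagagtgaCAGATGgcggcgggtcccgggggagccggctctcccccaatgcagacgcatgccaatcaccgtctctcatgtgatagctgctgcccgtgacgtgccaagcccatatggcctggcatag

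The motif CAGATG was in 2 of 11 promoter windows of the 8 genes, that of Neurod2 and a second start site of Cux2, and in 14.4% of 32851 RefSeq windows of the same length. CAGCTG and AGGTCA were in none of the 11, against 13.0% and 14.0% of all windows. GGTGTGA was in 1 window of Slc30a3, against 3.33%, and ATCGAT in 1 of Cux2, against 0.728%. The GC content of the Slc17a7, Neurod2 and Neurod6 runs was 61.2%, 52.8% and 46.0%, beside a median of 52.4% over all windows. These matches describe letters in a window and are not measured binding.

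Library totals lay between 42.7 and 82.7 M (mega) counts. By the numbers in their titles the libraries fell into a set of 20 (numbers 1 to 20) and a set of 8 (21 to 28), called here the first and the second set, and the labels do not say what separates them. The sets stood apart on the first principal component, with 32.6% of the variance, and each group had libraries in both. Among 12 markers of striatal projection neurons, which included the dopamine receptors Drd1 and Drd2, the summed level was lowest in female morphine replicate 5 (457.6 CPM, counts per M library counts after scaling) and female saline replicate 5 (839.3 CPM), both of the second set. The other 26 libraries lay between 1836 and 5798 CPM. So in these 2 libraries the defining markers of the labelled tissue were low, and the main results for the second set are also given without them.

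All 9 markers were detected in every library. Fezf2, at 1.79 CPM, was the only one under 10 CPM in any library. Per kilobase of exon, which allows genes to be compared, Slc17a7 was far above the rest in the first set, at 172 ± 39.5 CPM per kilobase (SD, n = 20), and was the highest of the 9 in each of the 28 libraries. Neurod6 came next at 25.7 ± 8.22 CPM per kilobase and was above Slc30a3 in 19 of 20 libraries. Slc30a3 (16.6 ± 3.67), Tbr1 (16.3 ± 3.74), Neurod2 (14.2 ± 5.07) and Nrn1 (14.1 ± 4.36) overlapped in their spread, and Slc30a3 was above Tbr1 in only 11 of 20. Cux2 (6.95 ± 1.33), Fezf2 (4.53 ± 2.50) and Rorb (3.00 ± 0.686) were lowest. In the second set the order of the middle genes changed, with Neurod2 at 22.0 ± 12.1 CPM per kilobase (SD, n = 8) close to Neurod6 at 23.8 ± 10.3. Without the 2 libraries low in striatal markers the values were 16.2 ± 5.80 for Neurod2 and 20.4 ± 9.71 for Neurod6 (SD, n = 6).

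**Figure D1:**
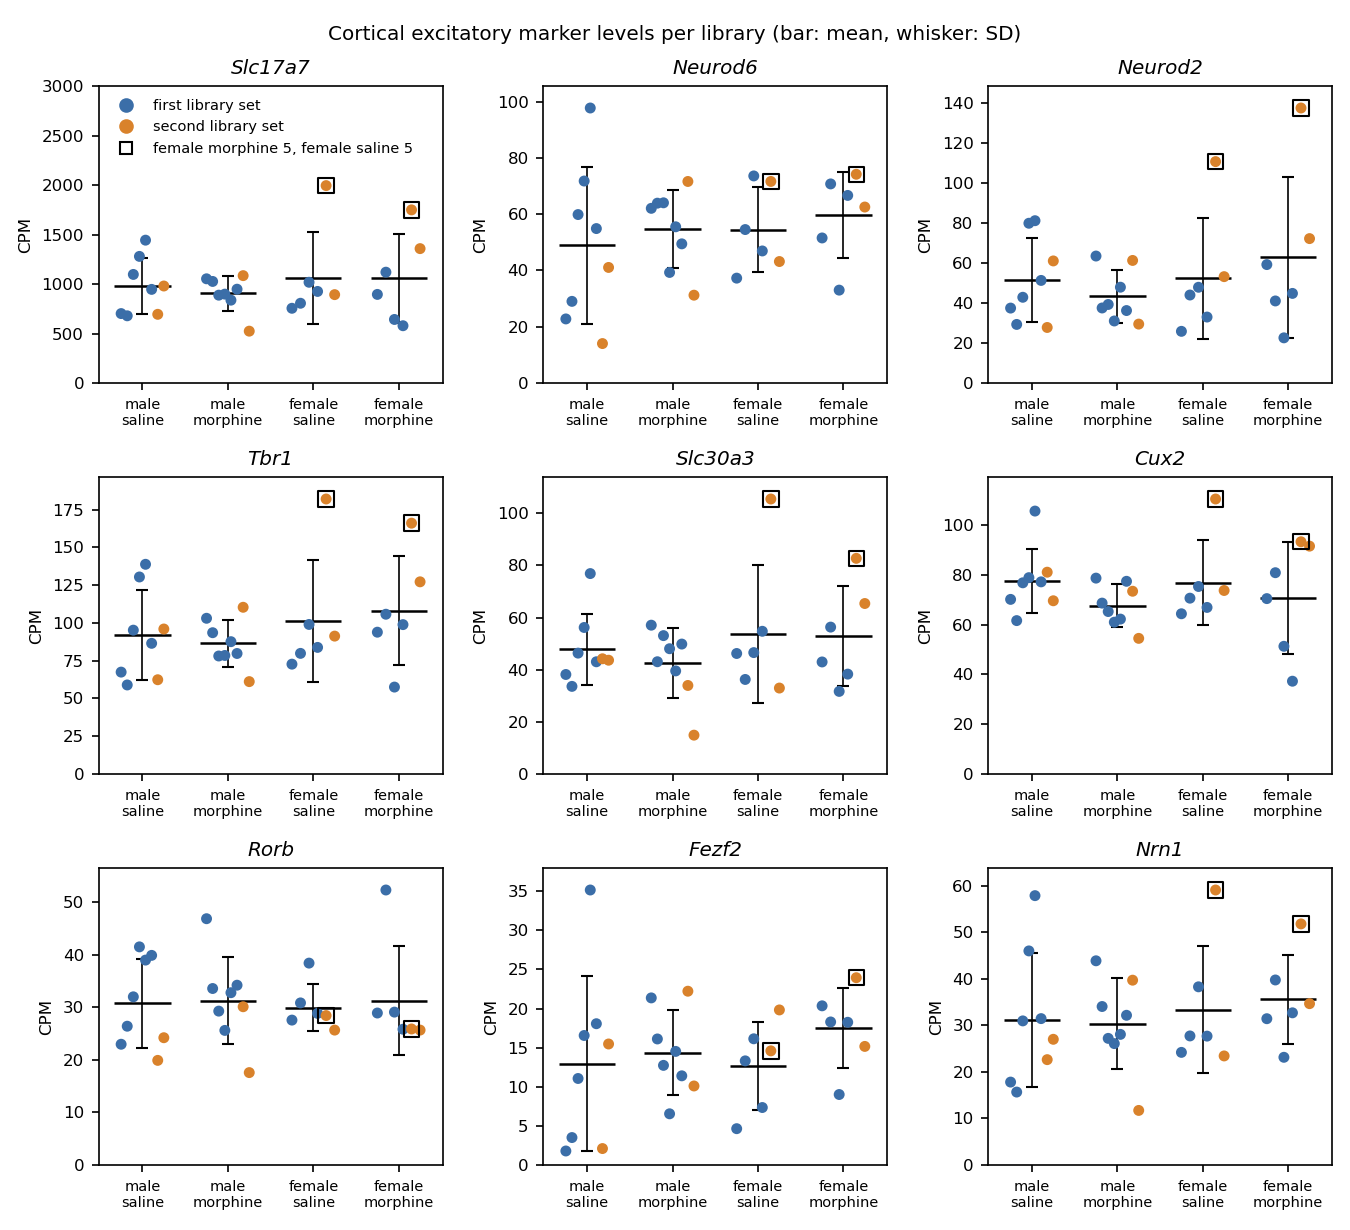
Levels of the 9 markers by agent and sex, in CPM, 1 point per library; horizontal bars are group means and whiskers SDs (n = 8, 8, 6 and 6), each gene on its own scale. The 2 boxed libraries, lowest in striatal markers, are the highest 2 of 28 for Slc17a7, Neurod2, Tbr1 and Slc30a3 but sit inside the range of the others for Rorb, Fezf2 and Neurod6.

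Slc17a7 ranged from 678.9 to 1994 CPM in the 14 saline libraries (median 935.4) and from 523.8 to 1749 CPM in the 14 morphine libraries (median 922.8). The lowest library was male morphine replicate 8 and the highest female saline replicate 5, a 3.81-fold span, and the agents overlapped almost throughout. Slc30a3 (ZnT3), which loads zinc into the same class of vesicles, ran from 32.98 to 105.5 CPM on saline (median 45.2) and from 14.9 to 82.7 CPM on morphine (median 45.6). Its lowest and highest libraries were the same as those of Slc17a7. Its span was wider, at 7.08-fold, and male morphine replicate 8 lay well under the next lowest library, at 31.7 CPM.

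Neurod6, a transcription factor of differentiated excitatory neurons, ran from 14.0 to 97.7 CPM on saline (median 50.7) and from 31.2 to 74.2 CPM on morphine (median 62.3). Both ends of the range were male saline libraries, replicate 7 and replicate 5. Its relative Neurod2, which acts in the maturation of cortical neurons, ran from 25.8 to 110.7 CPM on saline (median 45.9) and from 22.6 to 137.5 CPM on morphine (median 42.9). The 2 libraries low in striatal markers ranked 1 and 2 of 28 for Neurod2 and 2 and 5 for Neurod6, and male saline replicate 5 ranked 3 for Neurod2 and 1 for Neurod6. The genes thus largely shared their high libraries. In the first set r was 0.71 and rho 0.72 (permutation p = 0.00051 and 0.0004, adjusted p = 0.00187 and 0.00157, n = 20), and r was 0.80 without 2 libraries. In the second set r was 0.86 and rho 0.95 (exact permutation p = 0.00161 and 0.00114, adjusted p = 0.00392 and 0.00342, n = 8). That r was 0.70 without male morphine replicate 8 and male saline replicate 7.

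Tbr1, a T-box factor needed for the identity of layer 6 neurons, ran from 59.0 to 182.1 CPM on saline (median 88.9) and from 57.6 to 166.1 CPM on morphine (median 93.7). Fezf2, which specifies neurons that project below the cortex, ran from 1.79 to 35.2 CPM on saline (median 13.9) and from 6.55 to 23.9 CPM on morphine (median 15.6). Fezf2 had the widest span of the 9, 19.6-fold between its lowest and highest library. Its SD on the log2 scale was 1.00 in the first set, larger than that of 94.9% of the genes tested, and 1.12 in the second, larger than 97% of them. Under a limit of 5 CPM, chosen after the values were seen, fell 4 libraries. They were male saline replicates 1, 2 and 7 and female saline replicate 1. The next lowest was male morphine replicate 4, at 6.55 CPM. This split by agent was not tested, and edgeR's quasi-likelihood test of Fezf2 between the agents gave an unadjusted p of 0.391.

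Cux2, a homeodomain factor of layers 2 to 4, ran from 61.7 to 110.5 CPM on saline (median 74.6) and from 37.3 to 93.3 CPM on morphine (median 69.6). Rorb, a nuclear receptor of layer 4, ran from 19.9 to 41.5 CPM on saline (median 28.6) and from 17.6 to 52.3 CPM on morphine (median 29.2). These 2 upper-layer genes had the narrowest spans of the 9, 2.96-fold and 2.98-fold, but deep-layer Tbr1 was close, at 3.16-fold. Their log2 SDs in the first set were 0.30 and 0.31, beside a median of 0.27 over all genes tested. Those of Slc30a3 (0.305), Tbr1 (0.32) and Slc17a7 (0.33) were much the same. So in the first set a narrow spread was not particular to upper-layer genes. In the second set Cux2 (0.311) and Rorb (0.258) had the lowest log2 SDs of the 9. Tbr1 (0.583), Slc17a7 (0.651) and Slc30a3 (0.884) spread more widely there, beside a median of 0.243 over all genes tested. These second-set values include the 2 libraries low in striatal markers. Nrn1, a membrane-anchored growth factor of neurites and synapses, ran from 15.7 to 59.1 CPM on saline (median 27.7) and from 11.7 to 51.8 CPM on morphine (median 32.4). Exons of Nrn1 overlap Fars2 on the opposite strand in GENCODE M21. The use of strand in the counting is not given in the sources used here, so reads of the pair cannot be told apart.

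The markers varied together from library to library. Pearson correlations of log2 CPM were computed apart in the 2 sets. The median over the 36 pairs was 0.69 in the first set (range 0.29 to 0.93) and 0.80 in the second (0.10 to 0.99). All 36 coefficients were positive in each set. In the first set 34 of 36 passed an adjusted p under 0.05 by a two-sided permutation test, with 100000 resamples and Benjamini-Hochberg adjustment over 90 relations, and 34 passed by Spearman's rho. In the second set, by the exact permutation test, 24 passed by Pearson's r and 21 by rho. Without the 2 libraries low in striatal markers the second set had a median of 0.77, but 12 of 36 pairs passed (n = 6, exact permutation test). Leaving out the 2 libraries farthest from the median of the x gene, pair by pair, gave a median of 0.68 in each set, with a lowest value of 0.20 in the first and -0.10 in the second. The pairs share libraries, depth and normalization and are not independent of each other.

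**Figure D2:**
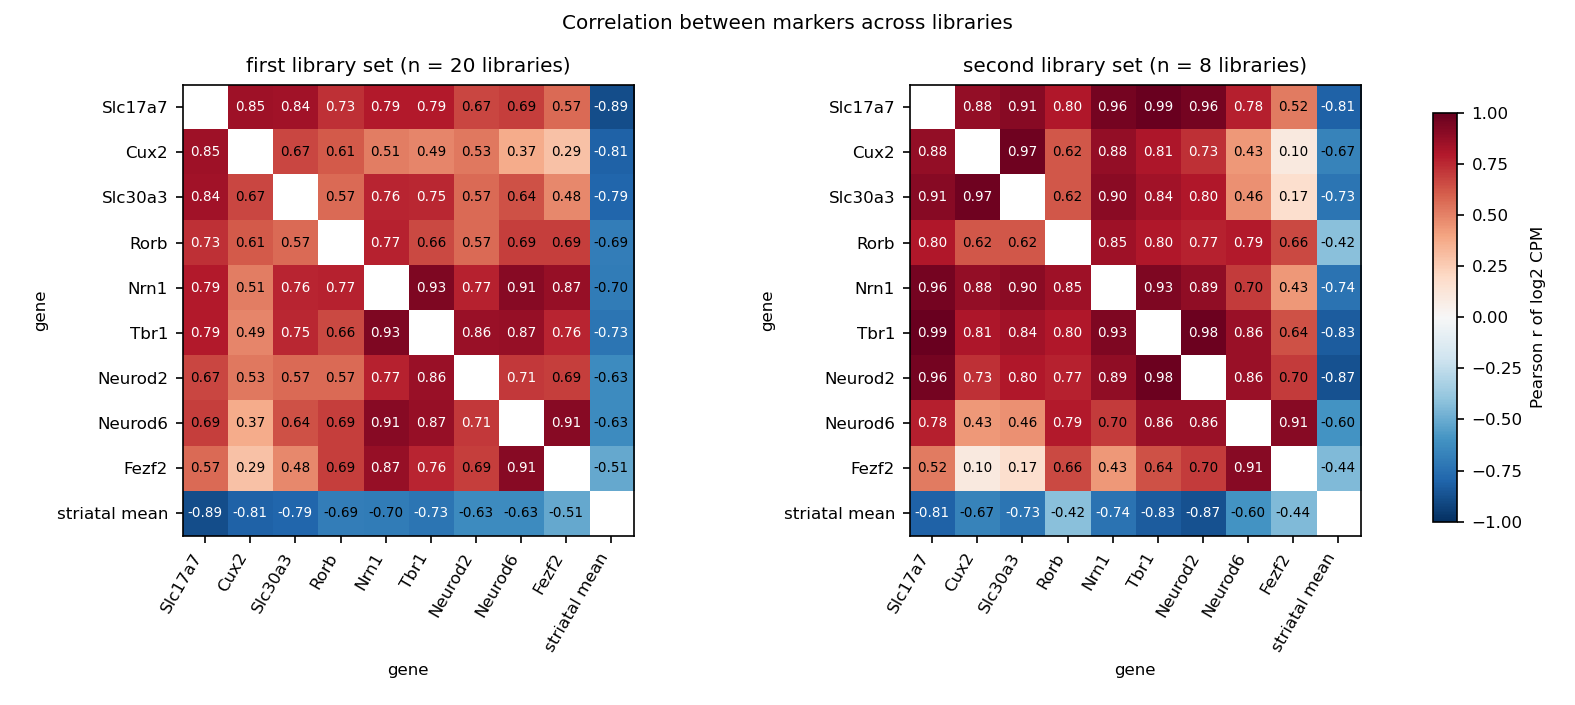
Pearson r of log2 CPM between each pair of markers and with the mean of 12 striatal markers (last row and column), in the first set (n = 20 libraries, left) and the second (n = 8, right). Coefficients between markers are positive in both panels, lowest for Cux2 with Fezf2 (0.29 and 0.10), and those with the striatal mean are negative.

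The layer 6 factor Tbr1 and Nrn1 had the closest pair of the first set, with r = 0.93 and rho = 0.93 (each p = 1e-05, the smallest that 100000 permutation resamples can give; adjusted p = 0.0001 and 0.000129; n = 20) and 0.94 without 2 libraries. In the second set their r was 0.93 and rho 0.98 (exact permutation p = 0.000546 and 0.000397, adjusted p = 0.00189 and 0.00157, n = 8) and r 0.90 without 2. The pair was thus close in both sets and did not rest on the extreme libraries. Slc17a7 and Tbr1 were closest in the second set, with r = 0.99 and rho = 1.0 (exact permutation p = 2.48e-05 and 4.96e-05, adjusted p = 0.000223 and 0.000343, n = 8) and r = 0.99 without 2. In the first set their r was 0.79 and rho 0.75 (permutation p = 7e-05 and 0.0002, adjusted p = 0.00045 and 0.000947, n = 20), and r was 0.96 without female morphine replicate 4.

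In female morphine replicate 4 the levels of the markers diverged from each other. It held the lowest Cux2 of the 28 libraries (37.3 CPM) and low Slc17a7 (578.7 CPM). Its Rorb (25.8 CPM) and Slc30a3 (38.3 CPM) were under their medians over all libraries (29.0 and 45.2 CPM). Its Tbr1 (98.9 CPM), Neurod6 (66.7 CPM) and Fezf2 (18.2 CPM) were above theirs (92.4, 55.2 and 14.9 CPM). Its Neurod2 (44.8 CPM) and Nrn1 (32.7 CPM) were close to theirs (44.4 and 31.2 CPM). Its summed striatal level was high, at 5240 CPM. Without it the first-set correlation of Cux2 with Neurod6 was 0.69 in place of 0.37, and that of Cux2 with Fezf2 was 0.56 in place of 0.29.

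Cux2 and Fezf2 had the weakest pair in both sets. In the first set r was 0.29 (permutation p = 0.213, adjusted p = 0.231, n = 20) and rho 0.56 (p = 0.0113, adjusted p = 0.0181), and r was 0.44 without 2 libraries. In the second r was 0.10 and rho 0.10 (exact permutation p = 0.785 and 0.84, adjusted p = 0.785 and 0.85, n = 8), with -0.03 without 2. Without male saline replicate 7 alone, that second-set r was 0.40. Fezf2 went more closely with Neurod6, with r = 0.91 and rho = 0.78 in the first set (permutation p = 1e-05 and 0.00016, adjusted p = 0.0001 and 0.0008, n = 20) and 0.82 without 2 libraries. In the second set their r was also 0.91 (exact permutation p = 0.00729, adjusted p = 0.0129, n = 8) but rho was 0.69 (p = 0.0694, adjusted p = 0.0844), and r was 0.66 without male saline replicate 7 and 0.28 without that library and male morphine replicate 8. That second-set relation therefore rested on those 2 libraries. Male saline replicate 7 held 14.0 CPM of Neurod6, the lowest of all, and 2.10 CPM of Fezf2 beside 81.1 CPM of Cux2, above the Cux2 median of 72.1 CPM.

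**Figure D3:**
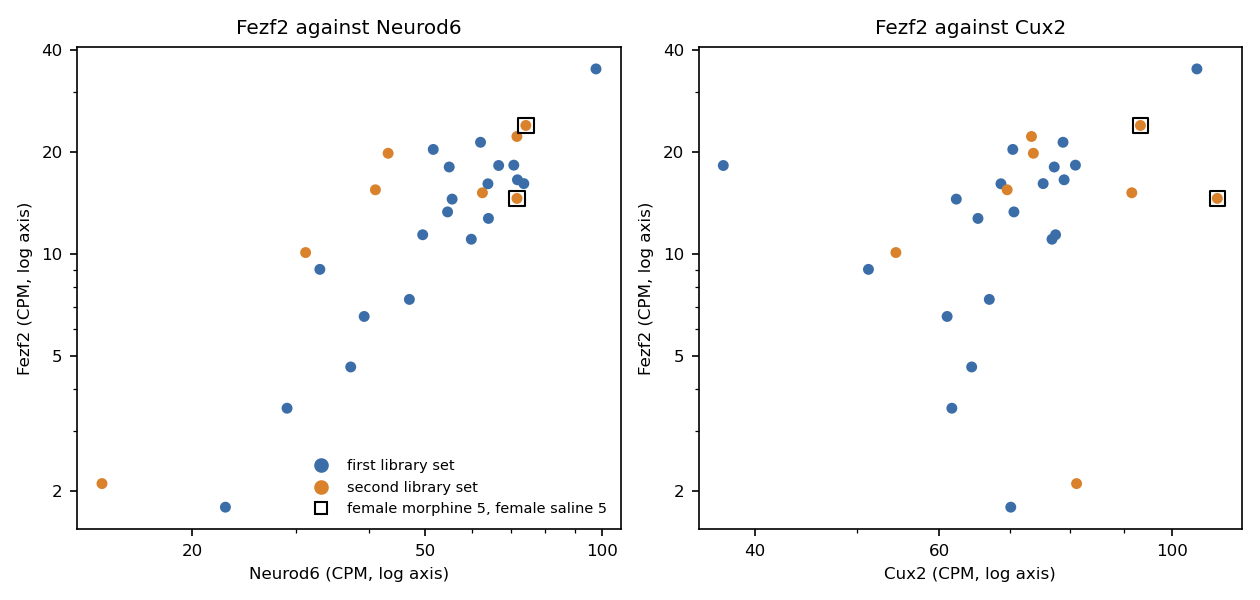
Fezf2 against Neurod6 (left) and against Cux2 (right), in CPM on log axes, 1 point per library. The libraries under 5 CPM of Fezf2 are also low in Neurod6. Their Cux2 is 70.2, 61.7 and 64.4 CPM, under its median of 72.1 CPM, and 81.1 CPM in male saline replicate 7 (2.10 CPM of Fezf2). The point at 37.3 CPM of Cux2 is female morphine replicate 4.

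Libraries with more cortical marker RNA had less striatal marker RNA. All 9 markers correlated negatively with the mean log2 CPM of the 12 striatal markers in both sets, with a median r of -0.70 in the first (-0.89 to -0.51) and -0.73 in the second (-0.87 to -0.42). In the first set 9 of 9 passed an adjusted p under 0.05 by Pearson's r and by rho (permutation test), and 9 passed without male saline replicate 5 and female morphine replicate 4. Without the 2 libraries farthest from the median striatal level, female morphine replicate 3 and male saline replicate 5, the median r was -0.55 (-0.84 to -0.37) and that of Neurod2 was -0.37 in place of -0.63. In the second set 3 passed by r (Slc17a7, Neurod2 and Tbr1) and 5 by rho, by the exact permutation test with n = 8. Without the 2 libraries low in striatal markers 2 of 9 passed by r (exact permutation test, n = 6), with a median of -0.71 (-0.93 to -0.45). Slc17a7 had the strongest relation of the first set, with r = -0.89 and rho = -0.84 (each p = 1e-05, the smallest the resamples can give; adjusted p = 0.0001 and 0.000129) and r = -0.84 without 2 libraries. Fezf2 had the weakest, with r = -0.51 and rho = -0.59 (permutation p = 0.0261 and 0.00755, adjusted p = 0.0356 and 0.0128) and r = -0.38 without 2. All levels are shares of a library, so a rise of 1 group of transcripts lowers the others, and in bulk tissue fewer cells of a type and less RNA per cell cannot be told apart. The position of the dissection was not measured.

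Male saline replicate 5 had the highest summed level of the 9 markers in the first set (2075 CPM) and its lowest summed striatal level (1836 CPM). Male morphine replicate 8 had the lowest summed marker level of all (754.5 CPM) beside 4988 CPM of striatal markers, and male saline replicate 7 had 968 CPM beside 5798 CPM. Most of the summed marker level was Slc17a7, with a mean of 993.1 CPM in a mean sum of 1394 CPM (n = 28).

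**Figure D4:**
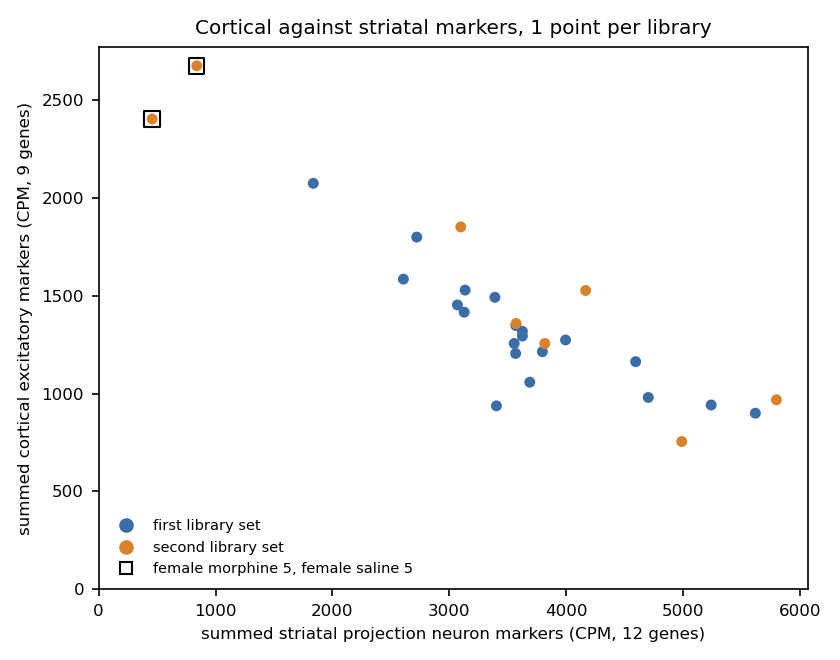
Summed level of the 9 cortical markers, most of which is Slc17a7, against the summed level of 12 striatal markers, in CPM, 1 point per library. The 2 boxed libraries hold 2404 and 2676 CPM of cortical markers with 457.6 and 839.3 CPM of striatal markers; the other 26 lie between 754.5 and 2075 CPM of cortical markers.

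The 2 libraries low in striatal markers were picked on striatal genes, and not all cortical markers were high in them. Both lay above each of the other 26 libraries for 4 of 9 markers, beside 4.74% of all genes tested. Slc17a7 was 1749 CPM in female morphine replicate 5 and 1994 CPM in female saline replicate 5, against at most 1443 CPM elsewhere. Neurod2 was 137.5 and 110.7 CPM against at most 81.1 CPM, Tbr1 166.1 and 182.1 CPM against at most 138.8 CPM, and Slc30a3 82.7 and 105.5 CPM against at most 76.9 CPM. Rorb, in contrast, was 25.9 and 28.4 CPM, under its median of 29.0 CPM over all libraries. Fezf2 (23.9 and 14.6 CPM) and Neurod6 (74.2 and 71.6 CPM) stayed within the range of the others, as did Cux2 in 1 of the 2 (93.3 and 110.5 CPM, others up to 105.7 CPM) and Nrn1 in 1 (51.8 and 59.1 CPM, others up to 57.9 CPM).

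Of 20 further genes of cortical excitatory neurons, 6 were above all other libraries in both (Bhlhe22, Cux1, Bcl6, Ntsr1, Rtn4rl2 and Hs3st2), beside 4.74% of all genes tested. Tle4 and Syt6 were below all others in both, beside 4.86% of all genes tested; Tle4 is not specific to cortical neurons. Their values in female morphine replicate 5 and female saline replicate 5 were 64.5 and 71.8 CPM for Tle4, against at least 97.8 CPM elsewhere, and 35.8 and 43.8 CPM for Syt6, against at least 92.4 CPM.

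Female morphine replicate 5 also carried RNA of genes typical of cerebellum and hindbrain. Gabra6, a receptor subunit of cerebellar granule cells, was 5.14 CPM there, 0.0860 CPM in female saline replicate 5 and at most 0.123 CPM in the other 26. Cbln3, also of granule cells, was 9.52 CPM against at most 1.02 CPM in the other 26, and the summed level of the 6 genes of this list was 25.5 CPM against 0.702 to 2.51 CPM. Neurod1 was 32.8 CPM against at most 11.9 CPM in the other 26. The part of such RNA in the Slc17a7 and Neurod2 levels of this library was not tested. In female saline replicate 5 the summed level of this list was 1.27 CPM, inside the range of the other 26, while Slc17a7 was 1994 CPM and Neurod2 110.7 CPM.

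In the 2 libraries low in striatal markers, 2 of 11 tested relatives of the markers were above all others (Slc17a6 and Cux1). Another 2 were below all others (Slc17a8 and Slc30a1). The shares over all genes tested were 4.74% above and 4.86% below. Slc17a6 (VGLUT2), the glutamate transporter of thalamic and other subcortical neurons, was 83.0 and 45.2 CPM in the 2 libraries against at most 36.5 CPM in the others. Slc17a8 (VGLUT3), which cholinergic interneurons of the striatum use, was 2.50 and 1.40 CPM against at least 4.04 CPM. Across libraries Slc17a8 was the gene most opposite to Slc17a7 among 11972 genes with a mean of at least 5 CPM, with r = -0.937 in the first set and -0.931 in the second. It was followed by Necab2, Crabp1, Kcnip2 and Prkar2b, with r between -0.933 and -0.893. Chat and Slc5a7, markers of the same cholinergic interneurons, were also below all others in both libraries. They were 2 of 7 interneuron genes, beside 4.86% of all genes tested. The other genes of that list were not below all others in both. Of 13 relatives, Fezf1 and Nrn1l had too few reads to be tested.

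Outside the 9 markers, the genes most like Slc17a7 were ranked by the lower of their 2 within-set correlations. Gabbr2, a subunit of the metabotropic GABA receptor, had r = 0.945 in the first set (n = 20) and 0.968 in the second (n = 8). Faah, which breaks down endocannabinoids, had 0.940 and 0.983. Kcnj3, a G-protein-gated potassium channel, had 0.935 and 0.974. Car10, Rap1gap2, Prickle1, Herc3, Fam81a and Fhod3 were also among the closest 10, all between 0.927 and 0.980. Olfm1 was closest both to Tbr1 (0.942 and 0.981) and to Nrn1 (0.929 and 0.928). Cux2 had other neighbours, led by Rab6b (0.911 and 0.949), Camta2 and Slc45a4. These are the highest of many correlations and are given as a description.

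Rorb, the layer 4 receptor, was the marker that passed the test between the library sets. edgeR's quasi-likelihood test with Benjamini-Hochberg adjustment called 7842 of 21164 genes between the sets, 37.1%, with 4159 higher in the second set (19.7%) and 3683 lower (17.4%). Of the 9 markers 0 were called higher and 1 lower, and 2 passed an unadjusted p of 0.05, beside 44.4% of all genes. Rorb fell by 0.44 on the log2 scale (SE 0.13, edgeR adjusted p = 0.00741) from the first set to the second, from 33.3 ± 7.60 CPM (SD, n = 20) to 24.7 ± 4.14 CPM (SD, n = 8). The ranges overlapped, 23.0 to 52.3 CPM against 17.6 to 30.1 CPM, and Rorb was 0.49 lower (edgeR adjusted p = 0.00893) without the 2 libraries low in striatal markers. No marker had ranges that did not overlap between the sets, beside 7.29% of all genes. Neurod2 was 0.59 higher (SE 0.26, edgeR adjusted p = 0.0750; DESeq2 adjusted p = 0.0478), but 0.18 higher without the 2 libraries. The other 7 markers differed by -0.16 to 0.30, and the median over the 9 was 0.13, beside 0.006 over all genes tested. The 20 further cortical genes had 4 called higher and 4 called lower, with a median of 0.01; among the called were Cux1 (0.27 higher), Mef2c (0.59 lower) and Kcnv1 (0.54 lower).

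No marker passed the test between morphine and saline, and no gene of the table did. edgeR's quasi-likelihood test with sex as a covariate called 0 of 21164 genes (0%), with 735 at an unadjusted p under 0.05 (3.47%), and DESeq2 called 0. Among the 9 markers 4 were higher and 5 lower on morphine, 0 passed even an unadjusted p of 0.05, and their median log2 difference was -0.01, beside 0.003 over all genes. Fezf2 had the largest difference, 0.29 higher on morphine (SE 0.33, 95% interval -0.37 to 0.95, edgeR adjusted p = 0.9997), with 15.7 ± 5.31 CPM (SD, n = 14) against 12.8 ± 8.92 CPM (n = 14). The Fezf2 difference was 0.63 by limma-voom and 0.52 by edgeR without male saline replicate 5. Cux2 was 0.16 lower (SE 0.11, interval -0.38 to 0.05, unadjusted p = 0.139, edgeR adjusted p = 0.9997), with 69.0 ± 15.4 against 77.4 ± 14.2 CPM (SD, n = 14 each).

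**Figure D5:**
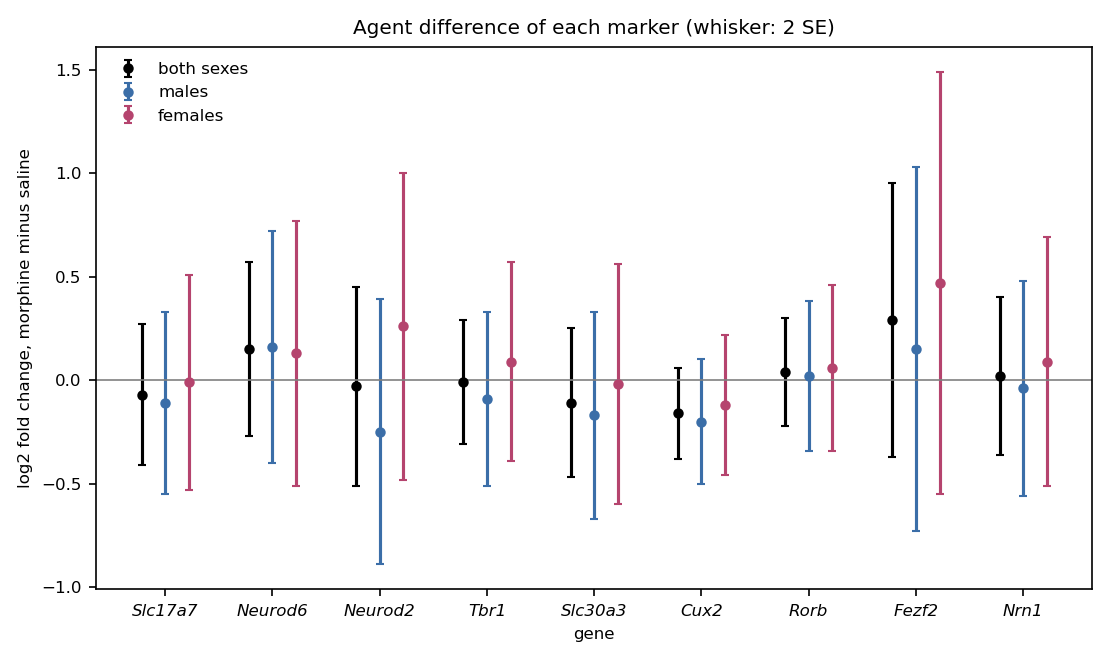
Log2 difference of each marker between morphine and saline from the edgeR fits, for both sexes (n = 14 and 14 libraries), males (8 and 8) and females (6 and 6); whiskers are 2 SE. Each whisker crosses 0, and those of Fezf2 are the widest (SE 0.33 in both sexes together).

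For Slc17a7, the most abundant marker, the difference was -0.07 (SE 0.17) with an interval of -0.40 to 0.26, so these libraries do not settle differences within that range. The difference was 0.15 for Neurod6 (SE 0.21), -0.03 for Neurod2 (SE 0.24), -0.01 for Tbr1 (SE 0.15) and -0.11 for Slc30a3 (SE 0.18). It was 0.04 for Rorb (SE 0.13) and 0.02 for Nrn1 (SE 0.19). In none of these 7 did the interval exclude 0.

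Within each sex no marker passed the test either. edgeR called 0 genes on morphine in males (369 at an unadjusted p under 0.05, 1.74%) and 0 in females (578, 2.73%), and 0 of the 9 markers passed the unadjusted threshold in either sex. In females DESeq2 called 2 predicted genes, Gm14567 and Gm29650, named after their values were seen because they were the only ones. Neither is a marker, and edgeR gave Gm14567 a log2 difference of 4.09 with an adjusted p of 0.681. The test of whether the agent difference differed between the sexes called 0 genes (288 at an unadjusted p under 0.05, 1.36%), and 0 of the 9 markers passed the unadjusted threshold. Neurod2 had the largest such contrast among the markers, with a log2 difference of -0.25 (SE 0.32) in males and 0.26 (SE 0.37) in females, and a difference between them of -0.51 (SE 0.48, unadjusted p = 0.302 in the edgeR fit). Without the 2 libraries low in striatal markers that difference was -0.48 (SE 0.39). In females on morphine Neurod2 ran from 22.6 CPM in replicate 3 to 137.5 CPM in replicate 5, 1 of the 2 libraries low in striatal markers. The agent difference did not pass a test of difference between the sets either, with 0 genes called (441 at an unadjusted p under 0.05, 2.08%, and 0 of the 9 markers). Among the markers Neurod6 had the largest contrast, 0.50 (SE 0.48), with 59.9 ± 19.8 against 42.5 ± 23.5 CPM in the second set (SD, n = 4 each) and 55.6 ± 12.3 against 54.8 ± 22.5 CPM in the first (n = 10 each). In the second set alone 0 of the 9 markers had ranges that did not overlap between the agents, beside 3.48% of all genes.

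The 20 further cortical genes had 12 higher and 8 lower on morphine, with a median of 0.04 and 0 called. The 12 striatal markers had 10 higher and 2 lower, with a median of 0.06 and 0 called, and the 11 tested relatives 9 higher and 2 lower, with a median of 0.07 and 0 called. Mef2c, Sv2b and Syt6, the most abundant of the further cortical genes, differed by 0.03, -0.02 and 0.12 on the log2 scale.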

How the data were processed

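Poly-A selected RNA of the nucleus accumbens was sequenced in 28 libraries. The authors deposited raw read counts per gene symbol; Trimmomatic, STAR, featureCounts and the mouse build mm10 are named, without versions, per the submitters' processing notes. The annotation, the use of strand and the handling of read pairs are not given in the sources used here. Among low counts 66.1 to 69.6% were even numbers in the first library set and 76.2 to 77.6% in the second. Library totals were 42.7 to 82.7 M (mega) counts. All 86 within-group pairs of libraries differed by more than sampling noise (chi-square per degree of freedom at least 8.62), so each counted as 1 replicate.

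Agent and sex came from the labels, which carry no replicate numbers; replicates were numbered in sample order and pair nothing. edgeR 4.0.16 in R 4.3.3 (filterByExpr, TMM, quasi-likelihood test, Benjamini-Hochberg over 21164 genes, threshold 0.05) tested morphine against saline with sex as a covariate, within each sex, the interaction, and the second against the first library set. CPM are TMM-scaled counts per M library counts; log2 CPM had a prior count of 2. SE is on the log2 scale. Correlations used permutation tests (100000 resamples for 20 libraries, exact for 8), adjusted over 90 relations. Scripts were tested on simulated data. DESeq2 1.42.0, limma 3.58.1 (voom), other scalings and filters, halved counts and left-out libraries were alternatives. Exon lengths and overlaps came from GENCODE M21 on the same build, promoters from RefSeq.

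The markers and gene lists were chosen with earlier results of these data known. All 9 markers are named; the genes most like Slc17a7, Tbr1, Cux2 and Nrn1 were the top 10, 3, 3 and 3 by the lower within-set r (and the 5 most opposite to Slc17a7) among genes with a mean of at least 5 CPM. From the lists, the most abundant genes are named, up to 6 per list. Neurod1, Bhlhe22, Bcl6, Ntsr1, Rtn4rl2, Hs3st2 and the cerebellar genes were named after their values were seen. Some genes that the rule or the lists hold are not reported here.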

Additional observations from a re-analysis of the deposited data

Results flagged for a closer look

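Within each agent and sex group, the gap between the most extreme library and its neighbour was compared with the group's range (Dixon's 95% critical value). Of 44 groups and measures tested, 11 passed, and chance passes about 1 in 20, here 2.2. The measures are not independent, since the markers vary together and the summed marker level is mostly Slc17a7. An excess over 2.2 therefore cannot be read from the count of 11. The gap took up the following share of the range.

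Female saline replicate 5 was far above the other female saline libraries for Slc17a7 (0.692), Tbr1 (0.664), Cux2 (0.709) and the summed level of the 9 markers (0.658), and far below them for the summed striatal markers (0.763). Female morphine replicate 5 was far below its group for the summed striatal markers (0.694). Male morphine replicate 8 was far below the other male morphine libraries for Slc17a7 (0.644), Slc30a3 (0.613), Nrn1 (0.606) and the summed markers (0.663). Female morphine replicate 2 was far above its group for Rorb (0.825), with 52.3 CPM against at most 29.1 CPM in the other 5; its Slc17a7 was 1120 CPM and its Fezf2 18.3 CPM, both inside the range of that group.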

How the results depend on the processing

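No gene passed between morphine and saline under any of 11 alternatives (other tools, scalings and filters, halved counts, the library set as a covariate, single sets, without the 2 libraries low in striatal markers) or with any 1 of 28 libraries left out (0 to 0 genes). With the library set as a covariate the lowest adjusted p was 0.0592 and 1189 genes had an unadjusted p under 0.05. In females DESeq2 called 2 genes. The sign of small differences between morphine and saline changed: Tbr1 was 0.02 by limma-voom, 0.11 in the second set alone and 0.02 without the 2 libraries, and in the second set alone Slc17a7 was 0.03 and Neurod2 0.20. Larger differences kept their sign but moved by over 1.5 times: Fezf2 (0.29) was 0.63 by limma-voom and 0.53 in the second set alone, Neurod6 (0.15) was 0.25 by limma-voom, 0.02 in the first set alone and 0.58 in the second, and Slc30a3 (-0.11) was -0.06 in the first set alone, -0.37 in the second and -0.06 without the 2 libraries. Leaving out 1 library gave ranges of -0.15 to 0.04 for Slc17a7, 0.07 to 0.27 for Neurod6, -0.20 to 0.10 for Neurod2, -0.08 to 0.09 for Tbr1, -0.18 to 0.01 for Slc30a3, -0.20 to -0.11 for Cux2, -0.04 to 0.09 for Rorb, 0.20 to 0.52 for Fezf2 (highest without male saline replicate 5) and -0.04 to 0.12 for Nrn1. Between the library sets, leaving out the 2 libraries turned Slc17a7 to -0.01, Slc30a3 to -0.27 and Nrn1 to -0.28; the cause was not tested. The median correlation over 36 pairs ranged from 0.66 (without male saline replicate 5) to 0.77 (without female morphine replicate 4) in the first set and from 0.76 to 0.88 in the second, where 12 pairs passed without the 2 libraries, with fewer samples (n = 6). That count was chosen after the data were seen, as were the second-set levels per kilobase and the Neurod2 sex contrast without the 2 libraries, the count against striatal markers without them, and the first-set count without male saline replicate 5 and female morphine replicate 4, 33 of 36. Correlations of single pairs without 1 named library (female morphine replicate 4 or male saline replicate 7) were also chosen after the data were seen. No paired analysis was possible because the labels carry no replicate numbers shared between groups.

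Litter, dissection borders, dose and what separates the library sets are not in the labels. The second set has 8 libraries, which limits its correlations.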

Other observations

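Summed levels of other cell type lists in the 2 libraries low in striatal markers were as follows. Thalamic genes summed to 109.3 CPM in female morphine replicate 5 and 68.7 CPM in female saline replicate 5, against 35.5 to 68.8 CPM in the other 26. Most of these 2 sums was Slc17a6 (83.0 and 45.2 CPM). The other genes of that list, Tcf7l2, Lef1, Prkcd and Gbx2, were inside the range of the other 26 in both. Septal genes summed to 134.0 and 72.2 CPM, against 34.6 to 111.3 CPM. Myelin genes, products of oligodendrocytes, summed to 3384 and 7388 CPM, against 2505 to 6574 CPM. Claustrum and endopiriform genes summed to 221.5 and 283.4 CPM, against 228.2 to 398.1 CPM. Hippocampal genes (48.1 and 42.1 CPM, others 29.7 to 53.1 CPM) and olfactory bulb genes (55.8 and 56.0 CPM, others 21.1 to 69.6 CPM) were inside the range of the others. So were astrocyte, microglial, endothelial and meningeal genes and the interneuron list as a whole (424.5 and 425.4 CPM, others 251.7 to 489.1 CPM). Choroid plexus and ependymal genes summed to 6.59 and 6.45 CPM, against 7.404 to 24.2 CPM.

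Between morphine and saline none of these lists had a gene called by edgeR's quasi-likelihood test. The 6 myelin genes were all lower on morphine, with a median log2 difference of -0.38 beside 0.003 over all genes tested. Between the library sets 5 of the 6 myelin genes were called higher in the second, beside 19.7% of all genes tested, with a median of 0.61 beside 0.006.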
